A study of Mus musculus with 27 samples.

Results

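In all, 6 libraries were compared to ask what the GSK3 inhibitor CHIR99021 adds to a mesoderm culture that already contains Activin A. They are the 3 IM5 and the 3 IM2 libraries of a bulk RNA-seq series of 27 libraries, chosen by their titles. The study screened 5 media, termed IM1 to IM5, for one that takes mouse embryonic stem cells (mESCs) towards gonadal progenitors. Both media held bFGF (5 ng/ml), BMP (20 ng/ml), retinoic acid (RA, 100 nM) and Activin A (10 ng/ml), and IM5 also held CHIR99021 (0.3 µM), so CHIR99021 was the 1 factor that differed. IM3 and IM4 repeat this pair without Activin A: IM3 held bFGF, BMP and RA, and IM4 the same with CHIR99021 at the same dose. All cells came from clone 7, an XY line of strain F1:C57BL/6 x CBA that carries Tesco-CFP and R26-rtTA, so every library shares these alleles and 1 clone stands for the model. Before the IM media the cells had passed through an epiblast-like stage (EpiSC) and an early mesoderm stage (M, in bFGF, BMP4 and the kinase inhibitor LY294002). RNA was taken from whole unsorted cultures, in which fewer cells of a type and less RNA per cell cannot be told apart. The study calls the replicates biological, and its labels do not say whether they were separate cultures, so the p-values measure the spread between libraries, which may be technical. For the tests of genes that spread was estimated in 1 model over all 27 libraries, not from the 6 compared alone.

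GSK3 marks β-catenin for destruction, and its inhibition lets β-catenin build up and act with TCF and LEF factors on Wnt target genes. Many of these targets, such as *Axin2*, *Nkd1*, *Notum* and *Dkk1*, encode inhibitors of the pathway and are used as its readout. In the embryo, Wnt signals are known for posterior patterning of the mesoderm and for holding back cardiac fate after early gastrulation. Activin A signals through SMAD2 and SMAD3, the route used by Nodal. In what follows a normalized read count is the RSEM expected count scaled by edgeR's TMM factors, a gene rose or fell if its adjusted p was under 0.05 in edgeR's quasi-likelihood test, and a gene was differentially expressed (DE) if its adjusted p was at most 0.01, its fold at least 2 and its mean count at least 100 both over all libraries and in 1 of the groups compared. Members of gene groups that were not DE are named where they were among the 4 most abundant of their group or belong to the Wnt target or Nodal target group, and any other such member was chosen after its values were seen.

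The libraries held 57083747 to 61654389 expected counts in IM2 and 59522411 to 71076876 in IM5, within the 35923040 to 84876603 of the series. Each library was also checked for a trend with GC content, taken as how far the most GC-rich quintile of genes deviated from the mean of all libraries, less the same for the most GC-poor quintile, both as a median on the log2 scale. This GC trend was −0.07, 0.21 and 0.20 in the IM2 libraries and 0.48, 0.20 and 0.16 in the IM5 libraries. It was higher in IM5 by 0.17 on average (0.11 ± 0.16 against 0.28 ± 0.18, SD, n = 3 each), with overlapping groups (exact two-sided permutation p = 0.5, and 3 libraries against 3 cannot go below 0.1). IM5 replicate 1 stood above the other IM5 libraries and IM2 replicate 1 below the other IM2 libraries. Over 13456 genes the log2 fold change of IM5 against IM2 rose with GC content (Spearman's rho = 0.40, across genes of the same 6 libraries). Values with an offset for each library's GC trend are therefore given beside the named calls that are lost with it. Between IM4 and IM3 the GC trend differed by −0.01.

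CHIR99021 with Activin A moved few genes far. Of 20839 genes tested, 49 were DE (0.235%), with 40 lower (0.192%) and 9 higher (0.0432%) in IM5. The falls were led by genes of the heart muscle, *Myh6*, *Myl7*, *Myl4* and *Actc1*, and the rises were *Tmem132c*, *Hbb-bh1*, *Hba-x*, *Cfc1*, *Dpysl4*, *Slc4a5*, *Pitx1*, *Tbx4* and *6530402F18Rik*. In all 49 the IM2 and IM5 libraries did not overlap, which was so for 22.7% of all genes tested. At an adjusted p under 0.05 without the fold and count minimums, 1782 genes passed (8.55%), of which 744 rose (3.57%) and 1038 fell (4.98%). Among the 13477 genes with a mean count of 100 or more, 5.18% rose and 7.1% fell, and the median log2 fold change of all genes tested was 0.00. Of the 49 DE genes, 28 were DE in each of the 6 fits that left out 1 library, and all 49 kept their direction. With an offset for GC content 50 genes were DE, 42 of them among the 49, but only 4 of the 9 rises (*Tmem132c*, *Hbb-bh1*, *Hba-x* and *Cfc1*) were kept. The rises not kept then had log2 fold changes of 0.89 to 0.996, so their calls depended on that offset. *Hbb-bh1*, *Hba-x* and *Cfc1* were under 100 counts in every IM2 library. They met the count minimum of a group only through IM5, where they were higher. The 9 rises had a median GC content of 55.4%, the 40 falls one of 51.0%, and all genes with a mean count of at least 100 one of 50.9%.

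**Figure D1:**
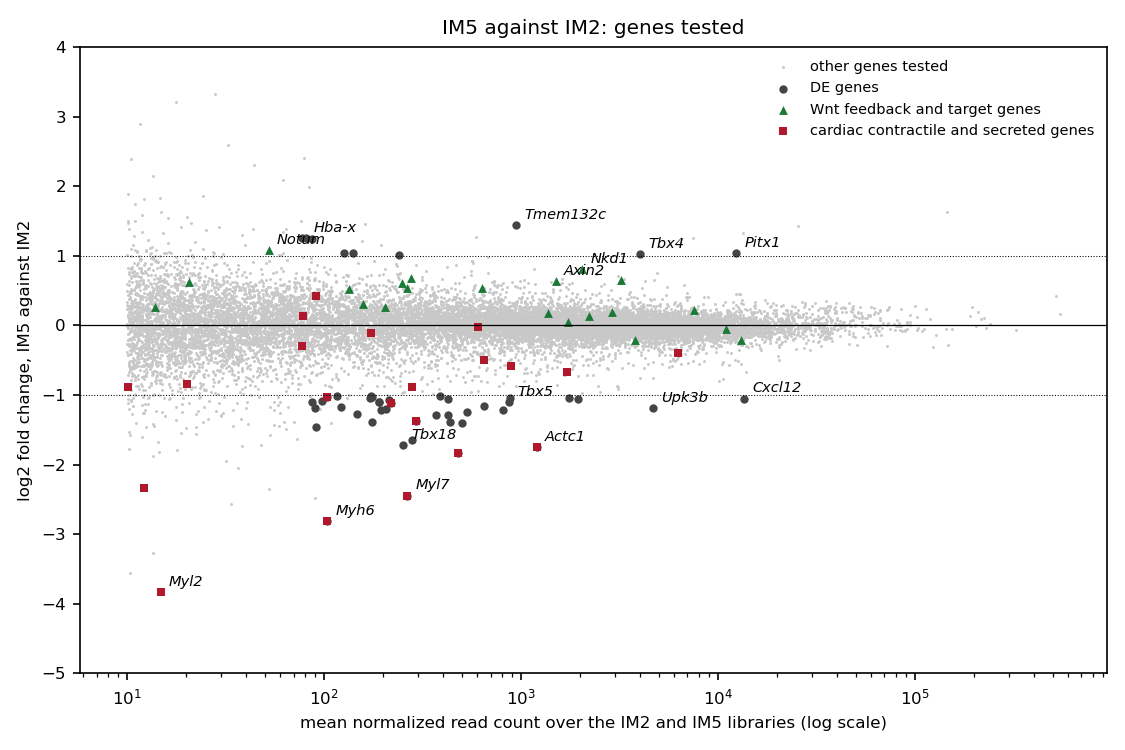
Log2 fold change of IM5 against IM2 (vertical axis) against the mean normalized read count over the 6 libraries (horizontal axis, log scale) for genes with a mean of at least 10, with dotted lines at a 2-fold change. In all, 5 genes lie outside the range drawn, −5 to 4. The 49 DE genes are black, or red squares where they belong to the cardiac contractile group, which lies mostly below 0, while most of the Wnt feedback and target genes (green triangles) lie above 0 and under the upper dotted line.

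The genes *Tbx5*, *Hbb-bh1* and *Gria1* stood for the comparison. *Tbx5* (GRCm38 chromosome 5, 119832668 to 119885219, plus strand) encodes a T-box factor of the heart and the forelimb field. Its normalized read counts were 1114, 1243 and 1216 in the IM2 libraries and 495, 530.4 and 644 in the IM5 libraries (log2 fold change −1.10, SE 0.11, adjusted p = 3.7e-07), and every IM5 library lay below every IM2 library. Across stages *Tbx5* was at 31.4 ± 14.5 at the M stage, 132 ± 2.59 in IM1, 1191 ± 67.8 in IM2, 556 ± 77.9 in IM5, 2869 ± 361 in IM3 and 2815 ± 90.5 in IM4 (SD, n = 3 each). *Hbb-bh1* (chromosome 7, 103841637 to 103843164, minus strand) encodes an embryonic β-like globin of primitive red blood cells. It had 39.1, 40.4 and 56.7 in the IM2 libraries and 129, 71.4 and 127 in the IM5 libraries (log2 fold change 1.26, SE 0.28, adjusted p = 0.0056), higher in every IM5 library but at low counts. It was not DE without IM2 replicate 1 or 2 or IM5 replicate 1 or 3 (log2 fold changes of 1.16, 1.18, 1.12 and 1.14). It also missed the call with an offset for effective transcript length (adjusted p = 0.013, edgeR) and with only IM2 and IM5 fitted (0.027). *Hbb-bh1* was at 1.84 ± 3.18 at the M stage, 242 ± 44.7 in IM1, 45.4 ± 9.81 in IM2, 109 ± 32.7 in IM5, 653 ± 104 in IM3 and 1135 ± 231 in IM4 (SD, n = 3 each). *Gria1* (chromosome 11, 57011387 to 57330244, plus strand) encodes a subunit of AMPA glutamate receptors. Its counts were 266, 281 and 245 in the IM2 libraries and 145, 168 and 159 in the IM5 libraries (log2 fold change −0.75, SE 0.17, adjusted p = 0.0057), without overlap, and it fell by less than the 2-fold asked of a DE gene. *Gria1* was at 0.735 ± 1.27 at the M stage, 19.8 ± 3.03 in IM1, 264 ± 17.8 in IM2, 157 ± 11.7 in IM5, 559.7 ± 4.70 in IM3 and 824 ± 106 in IM4 (SD, n = 3 each). For all 3 genes the level in IM3 and IM4 was above that in both media with Activin A.

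Readouts of Wnt signaling rose in part, mostly by less than 2-fold. Of 23 feedback and direct target genes tested, 10 rose, 1 fell, 12 did not pass and none was DE, with a median log2 fold change of 0.31 against 0.00 over all genes. Over all genes tested 3.57% rose and 4.98% fell. Upstream sequence is shown for those risen members whose RefSeq promoter window (250 bases before to 50 after a start, build GRCm38.p6) holds the core letters of a TCF/LEF motif, CTTTGAT or CTTTGAA on either strand, in capitals. The stretches lie at chr2:70474779-70474865, plus strand, for *Sp5*, at chr19:30549567-30549653, minus strand, for *Dkk1*, and at chr14:61038143-61038229, minus strand, for *Tnfrsf19*, each written 5′ to 3′ on the strand of its gene.
Sp5: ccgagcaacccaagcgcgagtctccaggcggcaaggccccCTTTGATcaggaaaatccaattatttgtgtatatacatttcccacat
Dkk1: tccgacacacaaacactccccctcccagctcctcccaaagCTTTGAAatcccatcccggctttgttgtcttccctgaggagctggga
Tnfrsf19: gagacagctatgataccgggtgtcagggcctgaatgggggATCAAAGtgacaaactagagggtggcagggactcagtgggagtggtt
The letters stood in 5 of 21 windows of the Wnt target group (23.8%, for the 13 of 23 genes with a window), in 5 of 43 windows of the DE genes lower in IM5 (11.6%), in 0 of 6 windows of those higher (6 of 9 genes had a window), and in 6.46% of the 17268 windows of all genes tested. Beside the genes shown, *Sp8* and *T* of the Wnt target group held the letters and did not pass. Both strings share all but their last letter, a window counts once, and a match is a description of the letters and not of binding.

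*Axin2*, a scaffold of the complex that destroys β-catenin, had normalized read counts of 1159, 1160.3 and 1199 in the IM2 libraries and 1696, 1925 and 1848 in the IM5 libraries (log2 fold change 0.64, SE 0.06, adjusted p = 1.1e-07). *Nkd1*, an inhibitor that binds Dishevelled, had 1464, 1402 and 1580.4 in the IM2 libraries and 2770.1, 2434 and 2573 in the IM5 libraries (log2 fold change 0.81, SE 0.08, adjusted p = 2.4e-07). Neither gene's groups overlapped, and the IM5 means were 1.55-fold and 1.75-fold those of IM2. *Sp5*, a zinc-finger factor whose upstream sequence is given above, had 180.0, 186 and 229.7 in the IM2 libraries and 362, 270.2 and 271 in the IM5 libraries (log2 fold change 0.60, SE 0.12, adjusted p = 0.0022). *Dkk1*, a secreted antagonist of the LRP5 and LRP6 co-receptors, had 2496, 2466 and 2591 in the IM2 libraries and 4172, 3536 and 4116 in the IM5 libraries (log2 fold change 0.65, SE 0.08, adjusted p = 5.8e-06). The IM5 libraries of both genes lay above all of IM2. *Notum*, a secreted enzyme that removes the lipid of Wnt ligands, rose most in the group (log2 fold change 1.08, SE 0.18, adjusted p = 1.6e-04), from 33.6 ± 4.36 to 71.0 ± 14.3, and missed the call as DE on its count. *Lgr5*, a receptor for R-spondins (0.68), *Tnfrsf19*, a TNF receptor family member (0.53), and *Nkd2*, a paralogue of *Nkd1* (0.54), rose as well. *Tcf7*, a TCF factor, and *Znrf3*, a ligase that clears Frizzled receptors, rose by 0.19 and 0.18, and their rises, like that of *Nkd2*, did not pass in every fit without 1 library. *Ccnd1*, which encodes cyclin D1, fell (log2 fold change −0.21, SE 0.05, adjusted p = 0.0099), though not in every fit without 1 library. *Myc* had −0.21, *Lef1* 0.22 and *Bambi* −0.05, none of which passed. With the GC offset 8 members rose and 1 fell, and *Tcf7* and *Znrf3* (both 0.13) no longer passed. The median GC content of the group was 54.7%, above the 50.9% of all genes with a mean count of at least 100.

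Components upstream of the targets were counted against the 3.57% of all genes that rose and the 4.98% that fell. Of 18 Wnt ligand genes tested, *Wnt5b* rose (0.44) and *Wnt2b* fell (−0.67), and the most abundant, *Wnt5a*, had −0.15 and did not pass. The fall of *Wnt2b* passed in each fit without 1 library and with the GC offset, whereas the rise of *Wnt5b* did not pass with the offset (0.35) or without IM2 replicate 1 or 2 or IM5 replicate 1 or 2. Among 31 receptors and secreted modulators 5 rose, 3 fell and 23 did not pass. The risers were *Fzd10* (0.62), *Sfrp2* (0.48), *Frzb* (0.41), *Ror2* (0.33) and *Ror1* (0.23), and the secreted antagonist *Sfrp1* fell (log2 fold change −0.54, SE 0.09, adjusted p = 1.6e-04) together with the Frizzled receptor genes *Fzd1* (−0.40) and *Fzd8* (−0.39). Of 18 genes of the destruction complex and its nuclear partners, *Axin1* rose (0.16), *Tcf7l2* (−0.28) and *Csnk1a1* (−0.16) fell, and 15 did not pass. Neither fall passed in every fit without 1 library. All 18 had a mean count of at least 100, and among such genes 5.18% rose and 7.1% fell. *Ctnnb1*, which encodes β-catenin, was at 87643 ± 1619.8 in IM2 and 83255 ± 1528 in IM5 (log2 fold change −0.07).

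The heart muscle program was lower with CHIR99021. Of 22 cardiac contractile and secreted genes, 15 fell, none rose and 7 did not pass, with a median log2 fold change of −0.86, and 7 of them were DE and lower. Over all genes tested 4.98% fell, and 10 of the 15 fell in each of the 6 fits without 1 library. Summed over the group, TPM (a level corrected for transcript length) was 423 to 491 in the IM2 libraries and 244 to 315 in the IM5 libraries. *Myh6*, the atrial α-myosin heavy chain, gave the largest fall of all DE genes. Its normalized read counts were 80.2, 247 and 217 in the IM2 libraries and 24.6, 34.3 and 17.9 in the IM5 libraries (log2 fold change −2.81, SE 0.40, adjusted p = 3.1e-05), and IM2 replicate 1 was the lowest of IM2. The same TCF/LEF letters stood in the promoter windows of 5 DE genes lower in IM5, of which *Myh6* was the only one of the cardiac group. The others were *Cxcl12*, *Ripor2*, *Rtn1* and *Tmem26*. In *Myh6* the letters (capitals) lie 91 bases before the start, at chr14:54966652-54966738, minus strand.
Myh6: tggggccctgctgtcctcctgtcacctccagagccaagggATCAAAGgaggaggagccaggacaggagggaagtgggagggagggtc
*Myl7*, the atrial regulatory light chain, had 306, 566 and 469 in the IM2 libraries and 104, 90.4 and 48.7 in the IM5 libraries (log2 fold change −2.45, SE 0.27, adjusted p = 8.2e-07). *Actc1*, cardiac α-actin, had 1459.9, 1916 and 2173 in the IM2 libraries and 631, 532 and 485 in the IM5 libraries (log2 fold change −1.75, SE 0.17, adjusted p = 2.0e-07). In both genes IM5 replicate 3 was the lowest library. *Myl4*, the atrial essential light chain (−1.84), and *Myh7*, the β-myosin heavy chain (−1.38), were DE as well. *Ttn*, the giant sarcomere protein titin, was DE (−1.12) but not without IM2 replicate 2 or 3 or IM5 replicate 1 or 3 (−1.04, −1.05, −0.92 and −1.07), and *Smyd1*, a muscle methyltransferase, was DE (−1.03) but not without IM2 replicate 3 or IM5 replicate 3 (−0.98 and −0.97). *Myh6* and *Myh7* are near-identical neighbours whose reads the counting may split, and 13% of *Myh7* overlaps genes on the opposite strand. A pair of genes with under 100 counts had IM5 libraries near the floor of 3 counts. The ventricular light chain gene *Myl2* had 17.6, 31.1 and 34.6 in the IM2 libraries and 0, 3.61 and 1.99 in the IM5 libraries, and *Bmp10*, a secreted factor of the heart, had 21.5, 22.8 and 17.3 in the IM2 libraries and 1.69, 8.13 and 1.99 in the IM5 libraries. The more abundant members moved less: *Tnnt2*, troponin T, fell by 0.66 and *Tnni1*, slow troponin I, by 0.40 on the log2 scale, while *Ryr2* had −0.02 and did not pass.

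Genes of other muscle types gave fewer calls, counted beside the 4.98% of all genes tested that fell and the 3.57% that rose. Of 11 smooth muscle genes, *Actg2* (−0.57) and *Myh11* (−0.98) fell and 9 did not pass, among them the abundant *Acta2* (−0.07) and *Tagln* (−0.22). Of 9 skeletal muscle genes tested none passed, and *Myf5* was listed at 0 in all 6 libraries.

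Among 14 cardiac transcription factors the calls went both ways, with 6 that fell and 3 that rose. The shares over all genes tested were 4.98% that fell and 3.57% that rose. *Gata5*, a zinc-finger factor of heart and endoderm, had 964, 1197 and 1389 in the IM2 libraries and 611, 497 and 612 in the IM5 libraries and was DE (log2 fold change −1.05, SE 0.13, adjusted p = 6.5e-06), though not without IM2 replicate 3 or IM5 replicate 2 (−0.91 and −0.95). *Tbx20* (−0.53), *Gata4* (−0.50), *Mef2c* (−0.42) and *Gata6* (−0.18) fell by less. The risers were *Hand1* (0.45), a factor of lateral and extraembryonic mesoderm, *Isl1* (0.57), known from the second heart field and the hindlimb, and *Hopx* (0.68). *Nkx2-5*, an early cardiac marker, was low in both media, at 74.5 ± 20.2 in IM2 and 76.6 ± 9.36 in IM5.

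Markers of the hindlimb and the forelimb field moved in opposite directions. *Tbx4* and *Pitx1*, which mark the hindlimb field, rose, while *Tbx5*, which marks the forelimb field, fell as given above. *Tbx4* had 2644, 2876 and 2422 in the IM2 libraries and 5126, 5156 and 5919 in the IM5 libraries (log2 fold change 1.03, SE 0.09, adjusted p = 5.7e-08). *Pitx1* had 6932, 9045 and 8382 in the IM2 libraries and 17407, 15640.0 and 16817 in the IM5 libraries (log2 fold change 1.03, SE 0.11, adjusted p = 3.5e-07). Neither gene's groups overlapped. *Tbx4* was not DE without IM2 replicate 3 or IM5 replicate 3 (0.97 and 0.96), *Pitx1* not without IM2 replicate 1 (0.93), and neither with the GC offset (log2 fold changes of 0.996 and 0.89), each for a fold under 2. Of the 23 lateral plate and limb field factors, 12 rose, 3 fell and 8 did not pass, while over all genes tested 3.57% rose and 4.98% fell. The median of the group was 0.31, and with the GC offset 10 rose and 4 fell (median GC content of the group 56.0%). *Msx1* (0.75), *Irx3* (0.63), *Tbx2* (0.59), *Prrx1* (0.44) and *Tbx3* (0.31), factors of limb and flank mesenchyme, were among the risers, of which *Tbx3* did not pass with the GC offset (0.25). *Tbx18*, a T-box factor of the epicardium and of urogenital mesenchyme, was the largest fall of the group, with 364, 378 and 413 in the IM2 libraries and 107, 128 and 116 in the IM5 libraries (log2 fold change −1.72, SE 0.12, adjusted p = 3.2e-10). *Tcf21*, a factor of coelomic epithelium and the epicardium, fell too (−0.71). In all, 21% of *Tbx18* overlaps a gene on the opposite strand, from which its reads cannot be told apart if strand was not used.

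**Figure D2:**
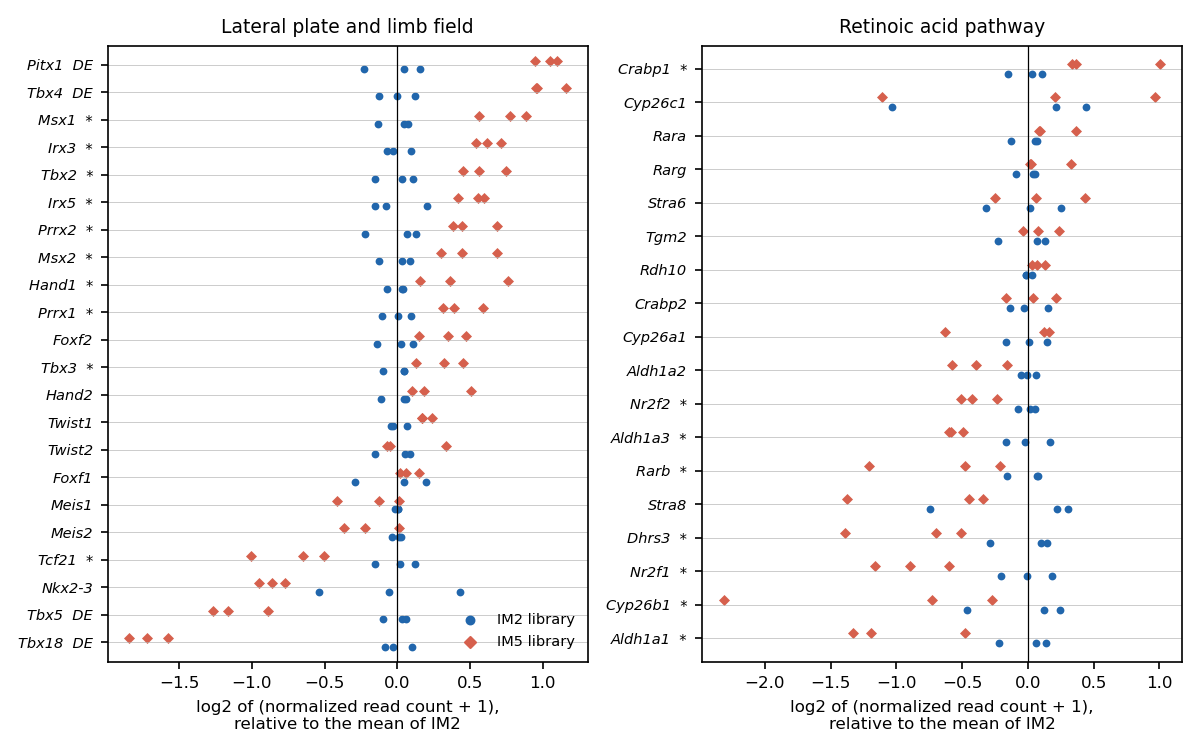
Log2 of the normalized read count plus 1, relative to the mean of the IM2 libraries (horizontal axis), for each IM2 library (blue circles) and IM5 library (red diamonds), in members with a mean of at least 20 in either group, where DE marks DE genes and an asterisk an adjusted p under 0.05. In the left panel the hindlimb genes *Pitx1* and *Tbx4* stand at the top and *Tbx5* and *Tbx18* at the bottom, and in the right panel 1 IM5 library lies far below the others for *Cyp26b1*.

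Hox genes, which encode position along the body axis by their order in 4 clusters, differed by paralogue group. Of 12 genes of groups 1 to 4, none rose, 2 fell and the median log2 fold change was −0.16. Of 15 genes of groups 5 to 9, 5 rose and none fell, with a median of 0.39. Of 12 genes of groups 10 to 13, 6 rose and none fell, with a median of 0.56, and all 12 had a positive value. None was DE. At the anterior end *Hoxa4* had 80.2, 85.9 and 91.3 in the IM2 libraries and 27.9, 55.1 and 70.5 in the IM5 libraries (log2 fold change −0.76, SE 0.21, adjusted p = 0.026). At the posterior end *Hoxa13* had 842, 809 and 755 in the IM2 libraries and 1206, 1164 and 1423 in the IM5 libraries (log2 fold change 0.66, SE 0.11, adjusted p = 1.5e-04), and *Hoxc10* had 259, 247 and 213 in the IM2 libraries and 368, 398 and 405 in the IM5 libraries (log2 fold change 0.70, SE 0.12, adjusted p = 2.0e-04). In these 3 genes the groups did not overlap, and *Hoxa4*, at under 100 counts, did not pass without IM2 replicate 2 or 3 or IM5 replicate 1. *Hoxa11* (0.60), *Hoxa10* (0.46) and *Hoxd13* (0.65) rose too, while *Hoxd11*, a marker of metanephric mesenchyme, had 0.43 and did not pass. Over the 39 Hox genes the log2 fold change followed the paralogue number (Spearman's rho = 0.68, across genes of the same libraries), with 0.89 over the 11 genes of the Hoxa cluster, 0.35 over 10 of Hoxb, 0.40 over 9 of Hoxc and 0.97 over 9 of Hoxd. With the GC offset the value over all 39 was 0.67. Between IM4 and IM3 it was 0.43, where none of the 39 genes rose or fell.

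**Figure D3:**
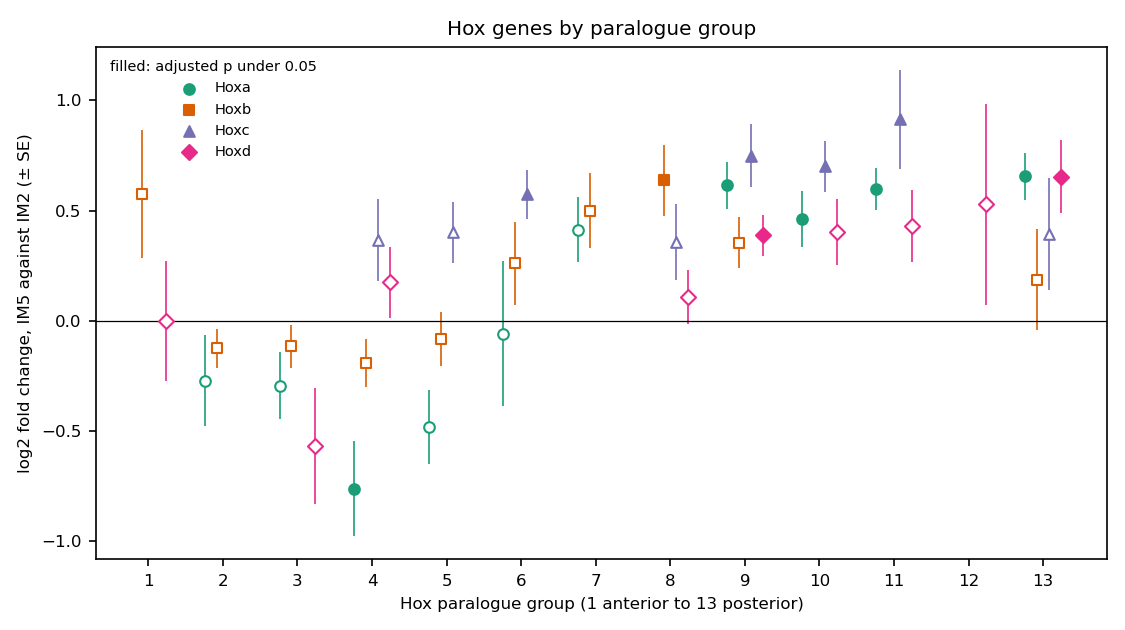
Log2 fold change of IM5 against IM2 (vertical axis, bars ± SE) by Hox paralogue group (horizontal axis, 1 anterior to 13 posterior), with a marker for each cluster and filled markers for an adjusted p under 0.05, for genes whose mean count reached 10 in IM2 or IM5. The filled markers drawn are below 0 in group 4 and above 0 from group 6 on.

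RA was in both media, and more genes of its pathway fell than rose with CHIR99021. Of 19 genes of RA synthesis, turnover and response, 8 fell, 1 rose and 10 did not pass, with a median of −0.37. Over all genes tested 4.98% fell and 3.57% rose. *Rarb*, a receptor gene that RA itself induces, had 2683, 3162 and 3131 in the IM2 libraries and 1295, 2153 and 2585 in the IM5 libraries (log2 fold change −0.58, SE 0.14, adjusted p = 0.01). *Dhrs3*, a retinal reductase that RA also induces, had 847, 1113 and 1148 in the IM2 libraries and 394, 639 and 726 in the IM5 libraries (log2 fold change −0.83, SE 0.14, adjusted p = 2.9e-04). *Cyp26b1*, an enzyme that degrades RA, had 2908, 4355 and 4756 in the IM2 libraries and 805, 2413 and 3320.4 in the IM5 libraries (log2 fold change −0.88, SE 0.25, adjusted p = 0.027), and its groups overlapped. In all 3 genes IM5 replicate 1 was the lowest library, and it was also the library with the highest GC trend. *Cyp26b1* did not pass without IM2 replicate 2 or 3. The nuclear receptor genes *Nr2f1* (−0.88) and *Nr2f2* (−0.39) and the synthesis enzyme genes *Aldh1a1* (−0.99, and −0.93 with the GC offset, where it did not pass) and *Aldh1a3* (−0.56) fell, and the binding protein gene *Crabp1* rose (0.61). The abundant receptors *Rara* (0.19) and *Rarg* (0.13) did not pass.

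Mesothelial genes, which mark the epithelium that lines the body cavity and from which the genital ridge arises, were lower in IM5. Of 15 mesothelial and epithelial genes, 10 fell, none rose and 5 did not pass, with a median of −0.34. The shares over all genes tested were 4.98% that fell and 3.57% that rose. *Upk3b*, a uroplakin of mesothelium, had 6195, 7117 and 6171 in the IM2 libraries and 2957, 2898 and 2715 in the IM5 libraries (log2 fold change −1.18, SE 0.17, adjusted p = 3.8e-05). *Upk1b* had 601, 579 and 553 in the IM2 libraries and 353, 250.3 and 222 in the IM5 libraries (log2 fold change −1.06, SE 0.13, adjusted p = 2.2e-06), and was not DE without IM5 replicate 2 or 3 (−0.995 and −0.93). In both genes all IM5 libraries lay below all IM2 libraries. *Muc16* (81.4 ± 5.22 to 30.4 ± 10.5) and *Msln* (114 ± 9.27 to 56.5 ± 5.40), surface proteins of mesothelium, fell at lower counts, and *Lrrn4* fell by 0.57 on the log2 scale. The keratin genes *Krt8* (−0.30), *Krt18* (−0.22) and *Krt7* (−0.34) fell less, and the epithelial genes *Cdh1* (0.07), *Epcam* (0.20) and *Cldn4* (0.13) did not pass. Leaving out IM2 or IM5 libraries singly left 6 members that fell in each of the 6 fits.

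**Figure D4:**
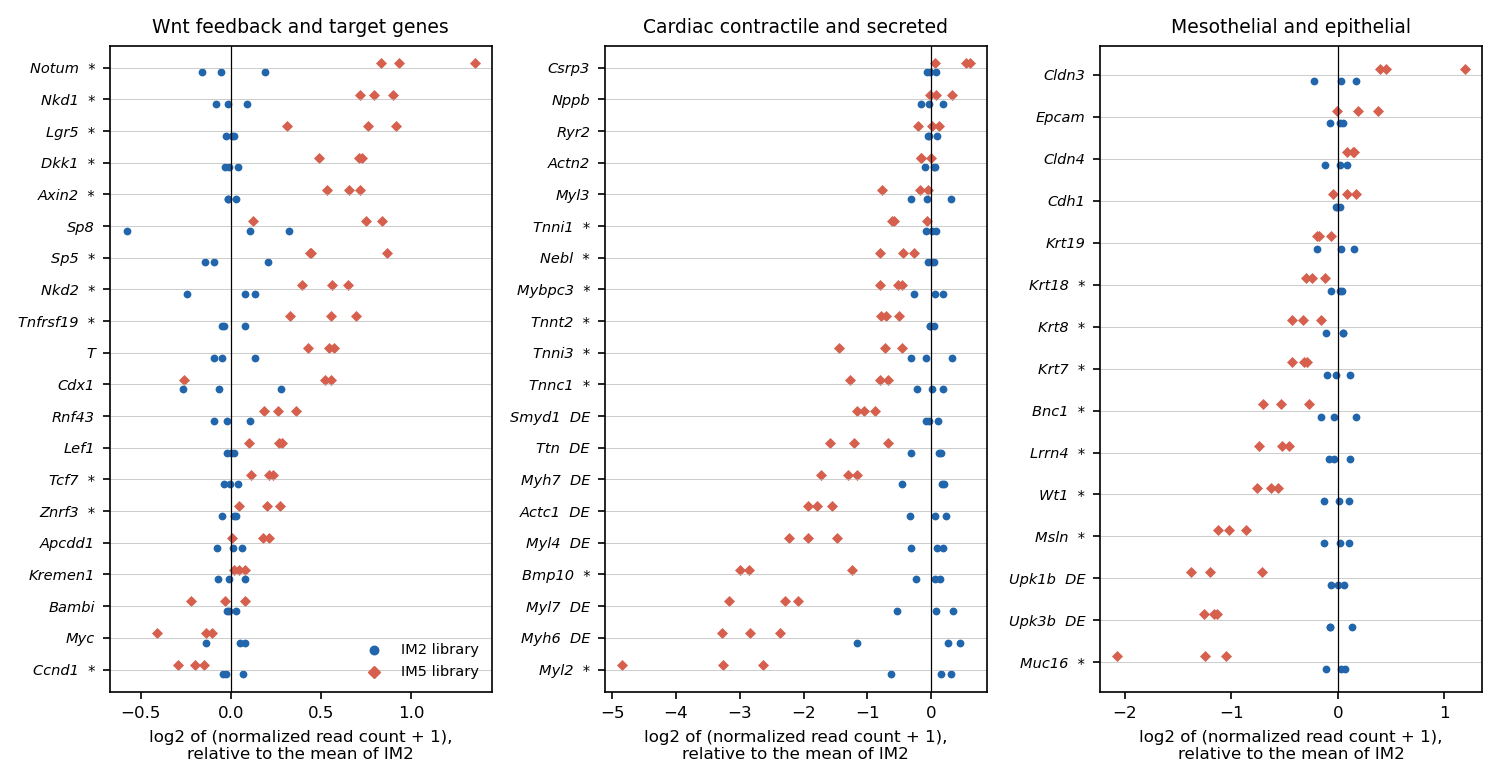
Log2 of the normalized read count plus 1, relative to the mean of the IM2 libraries (horizontal axis), for each IM2 library (blue circles) and IM5 library (red diamonds), in members with a mean of at least 20 in either group, where DE marks DE genes and an asterisk an adjusted p under 0.05. The horizontal scales differ between panels, and the cardiac panel spans the widest range, in which *Myl2*, *Myh6* and *Myl7* are lowest in IM5.

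For the markers by which the study screened its media, *Wt1*, a zinc-finger factor needed for kidney and gonad, had 2084, 2222 and 1893 in the IM2 libraries and 1219, 1401 and 1334 in the IM5 libraries (log2 fold change −0.65, SE 0.09, adjusted p = 4.0e-05). It fell without overlap. Of 10 genes tested from the study's own genital ridge list, which it chose for its samples, 4 fell (*Tcf21*, *Wt1*, *Gata4* and *Zfpm2*, the last by 0.41) and none rose. Over all genes tested 4.98% fell and 3.57% rose. *Emx2* (−0.13) and *Lhx9* (−0.41), needed for early gonad growth, did not pass, and *Lhx9* was at 51.2 ± 6.29 and 38.7 ± 5.62. *Osr1* (0.27), *Lhx1* (−0.10) and *Six2* (0.06), markers of intermediate mesoderm and nephron progenitors, did not pass, and *Pax2*, a defining kidney factor, was at 11.2 ± 4.87 and 15.7 ± 1.81 counts. Over 21 intermediate mesoderm and kidney genes *Cited1* rose (0.58), *Wt1* fell and 19 did not pass. *Sox9*, the Sertoli cell factor, had −0.23 and did not pass, and *Nr5a1* was at 9.34 ± 3.61 and 12.7 ± 2.66 counts. Of 23 genes tested from the study's Sertoli list 7 fell, 1 rose and 15 did not pass, and *Vnn1*, a pantetheinase, was DE (273, 282 and 316 in the IM2 libraries and 129.6, 145 and 141 in the IM5 libraries, log2 fold change −1.07), though not without IM2 replicate 3 (−0.997).

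Embryonic globins were higher in IM5. Beside *Hbb-bh1*, the ζ-globin gene *Hba-x* had 38.2, 60.0 and 45.2 in the IM2 libraries and 132, 96.7 and 111 in the IM5 libraries (log2 fold change 1.25, SE 0.23, adjusted p = 6.6e-04) and was DE in every fit without 1 library. *Hbb-y*, the ε-like globin gene, rose from 20.1 ± 2.91 to 39.7 ± 11.0 (log2 fold change 0.98, SE 0.27, adjusted p = 0.028), and did not pass without IM2 replicate 1, 2 or 3 or IM5 replicate 2. Globin genes are close copies whose reads the counting may split. Of 14 primitive erythroid and megakaryocyte genes tested, 3 rose, 1 fell and 10 did not pass, while over all genes tested 3.57% rose and 4.98% fell. The defining erythroid factors *Gata1* (0.320 ± 0.555 and 2.43 ± 1.03) and *Klf1* (8.91 ± 2.85 and 17.5 ± 5.13) were low, while *Tal1* was at 303 ± 11.3 and 363 ± 10.6 and did not pass. *Ppbp*, a platelet chemokine gene, fell, with 2569, 2747 and 2530.1 in the IM2 libraries and 1134, 1485 and 1161 in the IM5 libraries (log2 fold change −1.05, SE 0.21, adjusted p = 0.0017), and was not DE without IM2 replicate 2 or IM5 replicate 1 or 3 (−1.01, −0.98 and −0.997) or with the GC offset (−0.98). None of 6 genes of adult red blood cells and none of 5 macrophage genes tested passed, and the summed TPM of the former was 1.62 to 1.86 in IM2 and 1.88 to 3.04 in IM5. Of 22 endothelial genes 4 rose, 3 fell and 15 did not pass. All 22 had a mean count of at least 100, and among such genes 5.18% rose and 7.1% fell. The endothelial risers were the transcription factor genes *Erg* (0.57), *Sox17* (0.53), *Sox7* (0.47) and *Sox18* (0.36). Those that fell were surface genes, *Emcn* (−0.61), *Plvap* (−0.50) and *Tek* (−0.48), and *Kdr* (−0.09) and *Pecam1* (−0.07) did not pass. Of these 7 genes, *Sox7* and *Tek* passed in each fit without 1 library. *Erg* did not pass without IM2 replicate 1 or IM5 replicate 1, *Sox17* without IM2 replicate 1, *Sox18* without IM2 replicate 1 or 3 or IM5 replicate 1 or with the GC offset (0.24), *Emcn* without IM2 replicate 2 or IM5 replicate 2, and *Plvap* without IM2 replicate 3.

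Readouts of the other signals in the medium were counted in the same way, beside the 3.57% of all genes that rose and the 4.98% that fell. Of 18 Nodal and Activin target genes, 2 rose, 1 fell and 15 did not pass. *Lefty1*, an inhibitor of Nodal that Nodal induces, rose (0.46), and those that did not pass included *Nodal* (0.10), *Smad7* (0.11), *Skil* (−0.18), *Pmepa1* (0.19), *Eomes* (−0.22) and *Lefty2* (0.31). *Cfc1*, a co-receptor for Nodal outside this list, was DE and higher, with 52.8, 46.6 and 55.8 in the IM2 libraries and 177, 106 and 81.5 in the IM5 libraries (log2 fold change 1.24, SE 0.20, adjusted p = 1.3e-04). In *Cfc1*, 28% of which overlaps a gene on the opposite strand, IM5 replicate 1 was the highest library, and without it *Cfc1* was not DE (0.86). Of 15 BMP target genes *Msx1*, *Msx2* (0.49) and *Atoh8* (0.41) rose, *Id2* fell (−0.22), and *Id1* (0.22), *Id3* (0.00) and *Smad6* (−0.08) did not pass. With the GC offset *Atoh8* (0.27) and *Id2* (−0.18) did not pass. Of 20 FGF ligands and feedback genes 4 rose and 4 fell. *Fgf15* had 417, 365 and 411 in the IM2 libraries and 773, 769 and 672 in the IM5 libraries (log2 fold change 0.89, SE 0.11, adjusted p = 6.5e-06), and *Fgf3* (0.59), *Etv4* (0.39) and *Etv5* (0.17, and 0.13 with the GC offset, where it did not pass) rose with it. *Fgf18* (−1.10), *Fgf2* (−0.55), *Fgf10* (−0.39) and the feedback phosphatase gene *Dusp6* (−0.29) fell.

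Of the 49 DE genes 18 belonged to a gene group, and most of the largest others were the following. The largest rise of all was *Tmem132c*, a transmembrane protein gene, with 565, 524 and 443 in the IM2 libraries and 1637, 1268 and 1235 in the IM5 libraries (log2 fold change 1.44, SE 0.10, adjusted p = 1.2e-09), and it was DE in every fit without 1 library. *Plxnc1*, a semaphorin receptor, had 375, 439 and 456 in the IM2 libraries and 139, 135 and 131 in the IM5 libraries (log2 fold change −1.65, SE 0.13, adjusted p = 2.3e-09). *Pkhd1l1* (−1.47), *Shisa3* (−1.40), *1110032F04Rik* (−1.38, with 26% of its length under a gene on the opposite strand) and *Diras2*, a Ras-like GTPase gene (−1.38), completed the 10 largest falls. The most abundant DE gene was *Cxcl12*, a chemokine that guides progenitor cells, chosen here after its values were seen. Its counts were 18845, 17777 and 18408 in the IM2 libraries and 8248, 9499 and 8781 in the IM5 libraries (log2 fold change −1.05, SE 0.06, adjusted p = 7.3e-11), without overlap. Among the smaller rises, *Dpysl4*, a gene of neuronal growth cones, was DE (1.04) but not without IM5 replicate 1 or 2 (0.997 and 0.98), and *6530402F18Rik* was DE (1.02) but not without IM2 replicate 2 or IM5 replicate 3 (0.997 and 0.95). *Slc4a5*, a bicarbonate transporter gene, had 103, 99.4 and 75.0 in the IM2 libraries and 198, 189 and 179.8 in the IM5 libraries (log2 fold change 1.04, SE 0.16, adjusted p = 1.2e-04), and was not DE without IM2 replicate 3 (0.91).

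Among 17 ionotropic glutamate receptor genes *Gria1* fell together with *Grin2a* (31.3 ± 5.08 to 15.0 ± 4.62), *Grin2c* (−0.55) and *Grik4* (−0.29), and 13 did not pass, among them *Gria3*, the most abundant (−0.06), and *Grik5* (0.31). Only *Gria1* of these 4 passed in each fit without 1 library. Of 19 neural genes tested *Sox3* (0.98) and *Isl1* rose, and neuronal genes such as *Tubb3* (−0.11) and *Nefl* (−0.06) did not pass. No gene of the 13 proliferation genes and none of the 13 mitochondrially encoded genes passed, with medians of −0.05 and −0.06. Of 14 immediate early and stress genes 6 rose and none fell, beside 3.57% of all genes that rose, and 3 of the 6 rose in each fit without 1 library. Their median was 0.23, led by *Fosb* (0.72), *Hspa1a* (0.56) and *Atf3* (0.55), at a median GC content of 56.1%, and their part in the other results was not tested. *Hspa1a* and *Hspa1b* are near-identical copies. Of 16 endoderm and yolk sac genes *Afp*, α-fetoprotein, fell (log2 fold change −0.79, SE 0.13, adjusted p = 1.8e-04), *Cxcr4* (0.40) and *Sox17* rose, and *Apob* (0.12) and *Ttr* (0.10) did not pass. Beside the 3.57% of all genes that rose and the 4.98% that fell, 0 rose and 1 fell of 20 presomitic and paraxial mesoderm genes, 0 and 1 of 9 neural crest genes, 0 and 2 of 12 fibroblast and matrix genes, and 1 and 0 of 13 pluripotency genes.

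The same addition was made without Activin A in IM4 against IM3, which shares no library with IM5 and IM2. Of the 49 DE genes 47 had the same sign there, against 57.1% of all genes tested and 59.9% of those with a mean count of at least 100. Of the 40 falls 23 also fell in IM4 (1.58% of all genes did), and of the 9 rises 4 also rose (0.614%). The median of the 40 falls was −1.18 with Activin A and −0.70 without, and that of the 9 rises 1.04 and 0.62. Since the 49 were chosen for their size with Activin A, these medians are a description. For the 22 cardiac contractile and secreted genes the median was −0.88 without Activin A and −0.86 with it. In each pair 15 of the 22 fell. In IM4 against IM3, 21 genes were DE (0.101%), all lower, and 9 were DE in both, which is 18.4% of the 49 and 42.9% of the 21. *Myh6* (−2.17 without Activin A), *Actc1* (−1.56), *Myl7* (−1.51) and *Tbx18* (−1.17) fell in both pairs. Of the 23 Wnt target genes, 5 rose and none fell without Activin A, with a median of 0.26. With Activin A 10 rose and 1 fell, with a median of 0.31. Among them the values without Activin A were 0.46 for *Axin2*, 0.77 for *Nkd1* and 1.01 for *Sp5*, which rose there too, and −0.02 for *Dkk1*, which did not pass. The difference between both effects on *Dkk1* was 0.67 (adjusted p = 0.0064).

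The difference between both effects was tested directly, and 7 of 20839 genes passed with a difference of at least 2-fold (0.0336%, with 130 at an adjusted p under 0.05). *Tbx5* fell with Activin A and had 2796, 3261 and 2551 in the IM3 libraries and 2808, 2909 and 2728 in the IM4 libraries without it (log2 fold change −0.03). The called difference was −1.07 on the log2 scale (adjusted p = 6.7e-04, edgeR). *Gria1* fell with Activin A and had 556, 565 and 558 in the IM3 libraries and 933, 819 and 721 in the IM4 libraries without it (0.56, which did not pass). All IM4 libraries of *Gria1* lay above IM3, against the direction in IM5. *Shisa3*, which encodes a protein that attenuates Wnt and FGF signals, had 2320.5, 3246 and 2592 in the IM3 libraries and 2265, 2601 and 2396 in the IM4 libraries (−0.16), and *Kcnab1*, a potassium channel subunit gene, 3336, 3425 and 3732 in the IM3 libraries and 2774, 3066 and 3257 in the IM4 libraries (−0.20). *Tmem26*, a membrane protein gene, had 251, 202 and 248 in the IM2 libraries and 134, 92.2 and 118 in the IM5 libraries with Activin A (log2 fold change −1.03, SE 0.14, adjusted p = 1.4e-05), not DE without IM2 replicate 1 or 3 or IM5 replicate 2 (−0.97, −0.98 and −0.89), and 0.10 without it. The IM4 and IM3 libraries of *Tbx5* and *Shisa3* overlapped, those of *Kcnab1* did not (all IM4 below all IM3), and the IM5 and IM2 libraries of all 3 did not overlap. In the other direction, *Aldh1a2*, the main RA-synthesizing enzyme gene of the mesoderm, had 126, 132 and 122 in the IM2 libraries and 113, 84.9 and 96.4 in the IM5 libraries with Activin A (log2 fold change −0.37, SE 0.15, adjusted p = 0.13) and 853, 1041 and 925 in the IM3 libraries and 324, 376 and 304 in the IM4 libraries without it (−1.48), so it fell only in the pair without Activin A. *Slc4a5* rose with Activin A and had −0.46 without it. The called difference of *Kcnab1* was lost with the GC offset, and that of *Slc4a5* with the replicate number as a block (adjusted p = 0.014 with the block within IM3 and IM4).

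**Figure D5:**
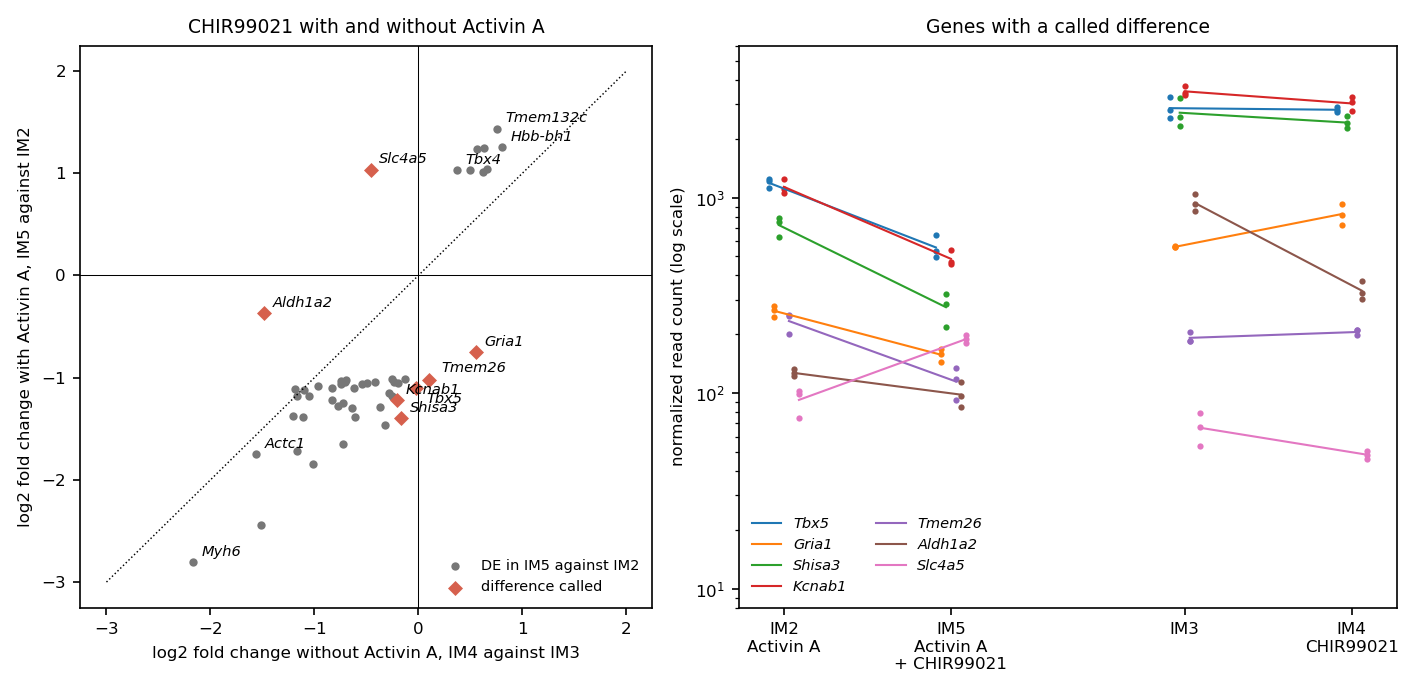
Left, log2 fold change of IM5 against IM2 (vertical axis) against that of IM4 against IM3 (horizontal axis) for the DE genes (gray) and the 7 genes with a called difference (red diamonds), with a dotted line where both are equal. Right, normalized read counts (log scale) of the 7 genes in each library, with lines joining group means. *Tbx5*, *Shisa3* and *Kcnab1* slope more steeply down from IM2 to IM5 than from IM3 to IM4, *Gria1* slopes down in the first pair and up in the second, and *Aldh1a2* is steepest from IM3 to IM4.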

How the data were processed

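Bulk RNA was sequenced as paired reads. The authors trimmed reads with Cutadapt 1.9.1, aligned them with STAR 2.5.2a to GRCm38 and counted with RSEM 1.3.0 (versions from the submitters' processing notes). The deposited expected counts are RSEM's estimate of fragments per gene, not normalized, and the deposited TPM values are scaled by the authors per effective length. Deposited FPKM values and strand settings were not used here, and the strand setting is not given in the sources used here. Depth was 35923040 to 84876603 expected counts per library, and a floor of 3 counts, which covers counting error only, was taken as the limit of detection.

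Names and GC content came from GENCODE M21 (48435 of 48795 genes matched). Expected counts were rounded, filtered with filterByExpr and fitted with edgeR 4.0.16 (R 4.3.3, glmQLFit and glmQLFTest, TMM, 1 model over 27 libraries, Benjamini-Hochberg adjustment). All calls and adjusted p-values are edgeR's. DE thresholds follow the study's. Promoters are RefSeq's. A few members of the gene groups are counted but not reported here by name or drawn. Same-numbered IM3 and IM4 libraries deviated together (correlations of deviations from group means over genes 0.18 to 0.21), from which, and not from the labels, their numbers were taken to pair them. Those of IM2 and IM5 did not (−0.14 to 0.03). The comparison, gene lists and tests were chosen with earlier results of these data known. Named genes are the 3 markers, the 10 DE genes that moved furthest in each direction without overlap of libraries, DE list members, the Wnt and Nodal target lists, up to 4 other abundant members of each list, the 5 largest interaction calls in each direction, the study's marker genes, and others chosen after their values were seen. Alternatives were DESeq2 1.42.0 (size factors and Wald test), an effective length offset, no low-count filter, fewer groups, other thresholds, GC offset, replicate block and each library left out. A block within IM3 and IM4 only was added after seeing the data.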

Additional observations from a re-analysis of the deposited data

Results flagged for a closer look

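In 7 genes the effect of CHIR99021 differed with and without Activin A in the test of the difference itself (edgeR, 3 libraries in each of 4 groups). Values are the log2 fold change of IM5 against IM2 minus that of IM4 against IM3. They were *Gria1* −1.30 (SE 0.23, adjusted p = 0.0054), *Shisa3* −1.23 (SE 0.17, adjusted p = 3.4e-04), *Tmem26* −1.13 (SE 0.19, adjusted p = 0.004), *Tbx5* −1.07 (SE 0.16, adjusted p = 6.7e-04), *Kcnab1* −1.02 (SE 0.11, adjusted p = 8.0e-06), *Aldh1a2* 1.12 (SE 0.19, adjusted p = 0.0037) and *Slc4a5* 1.49 (SE 0.28, adjusted p = 0.0087). Across the 12 fits that left out 1 library and 10 other settings, each gene kept the sign of its difference, with adjusted p up to 0.045.

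*Shisa3* was called in all 12 fits without 1 library (values −1.37 to −1.09 over all settings). *Tbx5* was not called without IM3 replicate 3 or IM5 replicate 1 (−1.18 to −0.99). *Kcnab1* was not called without IM2 replicate 1 or IM3 replicate 1 or 2 or IM4 replicate 3 or IM5 replicate 2 or 3 (−1.09 to −0.94), and *Aldh1a2* not without IM2 replicate 1 or 3 or IM3 replicate 2 or IM4 replicate 1 or 3 or IM5 replicate 1 (1.01 to 1.22). *Tmem26* was not called without IM2 replicate 1 or 3 or IM3 replicate 1 or 2 or IM4 replicate 2 or 3 or IM5 replicate 2 or 3 (−1.25 to −0.99), *Gria1* not without IM2 replicate 1 or 2 or 3 or IM3 replicate 1 or 2 or 3 or IM4 replicate 1 or 2 or IM5 replicate 1 or 3 (−1.38 to −1.21), and *Slc4a5* was called only without IM3 replicate 3 (1.37 to 1.61). Among the 10 other settings, *Tbx5* was called in all. *Gria1* was not called with the effective length offset, *Shisa3* and *Aldh1a2* not with the 15 IM libraries or only the groups compared, and *Tmem26* not in any of these 3. *Kcnab1* was not called with the GC offset, alone or with the replicate block, or with the effective length offset. *Slc4a5* was not called in 6 of the 10, among them both forms of the replicate block. Groups of 3 libraries were not tested for single outlying libraries. Without Activin A *Slc4a5* had 67.2, 78.8 and 53.7 in the IM3 libraries and 48.4, 46.3 and 50.7 in the IM4 libraries, all under 100 counts.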

How the results depend on the processing

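The 49 DE genes of IM5 against IM2 became 101 (23 higher, 78 lower) without the minimum of the mean count and 808 (292 higher, 516 lower) without the fold minimum. With the GC offset 5 genes were higher, and also with the GC offset and the replicate block. Leaving out 1 library gave 43 to 55 DE genes (6 to 10 higher, 34 to 46 lower). The other settings kept each count within 1.5 times, and none turned a direction that had been called. The replicate block gave 49 DE genes, 48 of them the same. Similar counts did not always mean the same genes. Of the 49, 39 were DE with the effective length offset (6 of the 9 rises). With only the groups compared 41 were (6 rises), and with the 15 IM libraries 42 (7 rises). 

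The 7 genes with a called difference became 12 (5 higher) with the Wald test of DESeq2, 13 (6 higher) without the low-count filter, 36 (11 higher, 25 lower) without the fold minimum, and 3 with the effective length offset (1 higher, 2 lower), with the 15 IM libraries (0 higher, 3 lower) and with only the groups compared (0 higher, 3 lower). The replicate block, alone, with the GC offset or within IM3 and IM4 only, left 1 higher. With the last, the pairing it follows changed 1 of the 7 calls (*Slc4a5*) and added *Pkhd1l1*, named after its values were seen, and 20 of the 21 DE genes of IM4 against IM3 were called, 8 of them DE in IM5 against IM2. Leaving out 1 library gave 2 to 6 (0 to 4 higher, 2 to 5 lower). The cause of these changes was not tested.

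With only the groups compared, 6 Wnt target genes rose and 4 RA genes fell, and with the 15 IM libraries 5 RA genes fell. With only IM2 and IM5 fitted, edgeR's adjusted p was 9.4e-04 for *Tbx5*, 0.027 for *Hbb-bh1* and 0.0083 for *Gria1*. Each was larger than in the model over 27 libraries. Without 1 library, 6 to 9 mesothelial genes and 5 to 8 RA genes fell, and the median of the Wnt targets was 0.22 to 0.45. The GC trend difference was 0.07 to 0.23 without 1 library and 0.14 to 0.17 under the other settings. Of 3285 values of 220 named genes under 15 alternatives, 3040 kept their side of the threshold, 179 no longer passed and 66 newly passed. Precision is limited by 3 libraries a group, and under about 100 counts by sampling.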
